A study of Mus musculus with 4 samples.

Results

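The 36 genes described here encode amino acid transporters of the SLC1, SLC3, SLC7, SLC36, SLC38 and SLC43 families, and were taken by gene symbol from the 54532 genes of the deposited tables. The cells were spleen PMN-MDSC (polymorphonuclear myeloid-derived suppressor cells, a neutrophil-like population that dampens T cell responses) of newborn C57BL/6 mice. After purification they spent 5 days with DMSO, the solvent, or with NECA, a stable agonist of adenosine receptors, and RNA was made from 300000 cells per condition. Each group had 2 libraries. The labels name neither separate animals nor separate treatments behind them, so the p-values reflect the spread of these samples alone, which may be technical.

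Amino acid transporters set which amino acids a cell takes up, exchanges or moves out of its lysosomes. The heavy chain Slc3a2 carries light chains of the SLC7 family to the cell surface, where they exchange amino acids. The CAT members of SLC7 carry arginine and lysine, SLC38 members carry glutamine and small neutral amino acids, and SLC36 members work with protons, often at lysosomes. In myeloid suppressor cells arginine and cystine uptake are known for their link to the restraint of T cells. Transcription of several of these genes is induced by ATF4, the transcription factor of the response to amino acid shortage.

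Depth was 15864120 to 18712625 counts per library. Of 13 neutrophil markers, 11 were abundant in every library: Ngp, a granule protein, had 29075 to 29789.7 CPM (counts scaled to a common library size, on TMM-scaled library sizes). The granule enzymes Elane and Mpo, which mark earlier stages, were low, at 1.23 to 4.04 and 3.49 to 15.4 CPM. Of 20 tested monocyte and macrophage markers, 16 were lower and 0 higher with NECA (edgeR's quasi-likelihood test, adjusted p under 0.05). At unadjusted p under 0.05 the counts were 17 lower and 0 higher, and with DESeq2 17 and 0. Of all genes tested, edgeR called 0.978% lower and 0.352% higher, and DESeq2 1.2% and 1.09%. At unadjusted p under 0.05 in edgeR the shares were 8.88% and 6.81%. NECA replicate 2 stood apart from the other libraries in summed B cell markers (34.9 CPM against 189 to 357 in the other libraries) and summed erythroid markers (59.6 CPM against 378 to 1234). In bulk RNA, fewer cells of a type and less RNA per cell cannot be told apart.

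Of the 36 transporter genes, 27 had a count in at least 1 library and 9 had none. Levels of different genes are compared as FPKM, which corrects for the length of the gene and the size of the library. A mean of at least 10 FPKM was reached by 3 genes, 14 lay between 1 and 10 FPKM, and the other 4 tested genes lay below 1 FPKM. Highest were Slc38a2 (23.7 FPKM on average over the 4 libraries), Slc38a10 (17.2 FPKM) and Slc3a2 (14.8 FPKM). These 3 genes held 52.4% and 52.1% of the summed FPKM of the 36 with DMSO and 57.4% and 57.7% with NECA. Slc43a3, Slc36a1 and Slc1a5 followed at 6.19, 6.03 and 6.00 FPKM, and their levels across libraries overlapped. Next came Slc7a7 (4.93 FPKM), Slc43a2 (3.29 FPKM), Slc7a8 (2.77 FPKM) and Slc38a9 (2.72 FPKM).

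**Figure D1:**
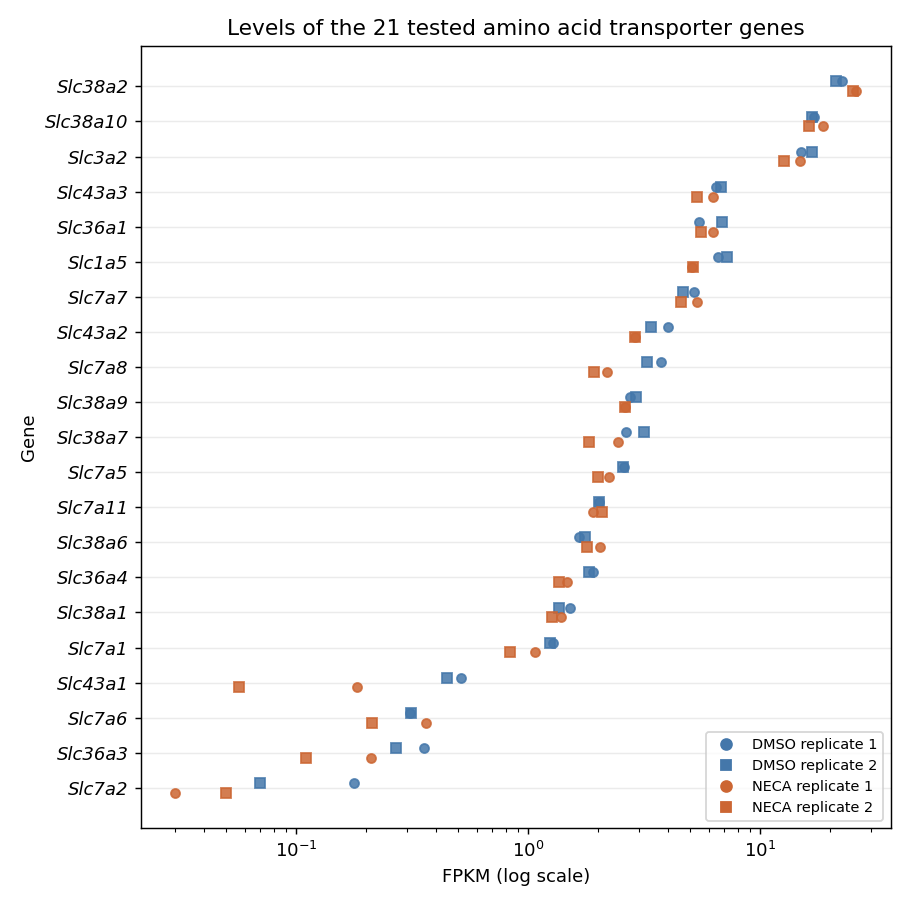
FPKM (log axis) of the 21 tested transporter genes, ordered by their mean; blue is DMSO and orange is NECA, circles are replicate 1 and squares replicate 2. Slc38a2, Slc38a10 and Slc3a2 lie above 10 FPKM in every library, and the 4 lowest genes lie below 1 FPKM.

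Setting NECA against DMSO shows how these transcripts differed after 5 days with the agonist. Slc7a8 was the 1 transporter called: edgeR called 1 of the 21 tested genes lower and 0 higher at adjusted p under 0.05. Over all 13083 genes tested, 0.978% were called lower and 0.352% higher (128 and 46 genes, 1.33% together; 217 and 21 with library size alone as the scale). DESeq2 called the same numbers of transporters, 1 lower and 0 higher, where it called 1.20% and 1.09% of all genes. At an unadjusted p under 0.05, 9 transporters were lower and 1 was higher, beside 8.88% and 6.81% of all genes tested. The 9 include Slc43a1 and Slc7a2, which reached the count minimum in both DMSO libraries but not in both NECA libraries. A mean count of at least 20 leaves out Slc7a2 but keeps Slc43a1. Among genes at that level, 8 of 19 transporters were lower and 1 higher, against 977 and 855 of 11319 genes.

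The median log2 fold change of the 21 genes was -0.21, and that of all genes tested was -0.01. In 13 of the 21, both NECA libraries lay below both DMSO libraries, and in 2 both lay above; over all genes tested these shares were 24.3% and 22.4%. With library size alone as the scale, 15 lay below and 1 above, against 35.5% and 11.7% of all genes tested. Slc43a1, Slc36a3 and Slc7a2 reached the count minimum in both DMSO libraries but not in both NECA libraries, so they were tested because of the group where they were high. Among genes with a mean count of at least 20, 11 of 19 transporters lay lower in both NECA libraries, against 23.1% of 11319 genes. That level leaves out Slc36a3 and Slc7a2 but keeps Slc43a1, which is among the 11. The median log2 fold change of these 19 was -0.19. The lowest of the 4 libraries was NECA replicate 2 for 15 of the 21 genes (71.4%) and for 28.9% of all genes tested.

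**Figure D2:**
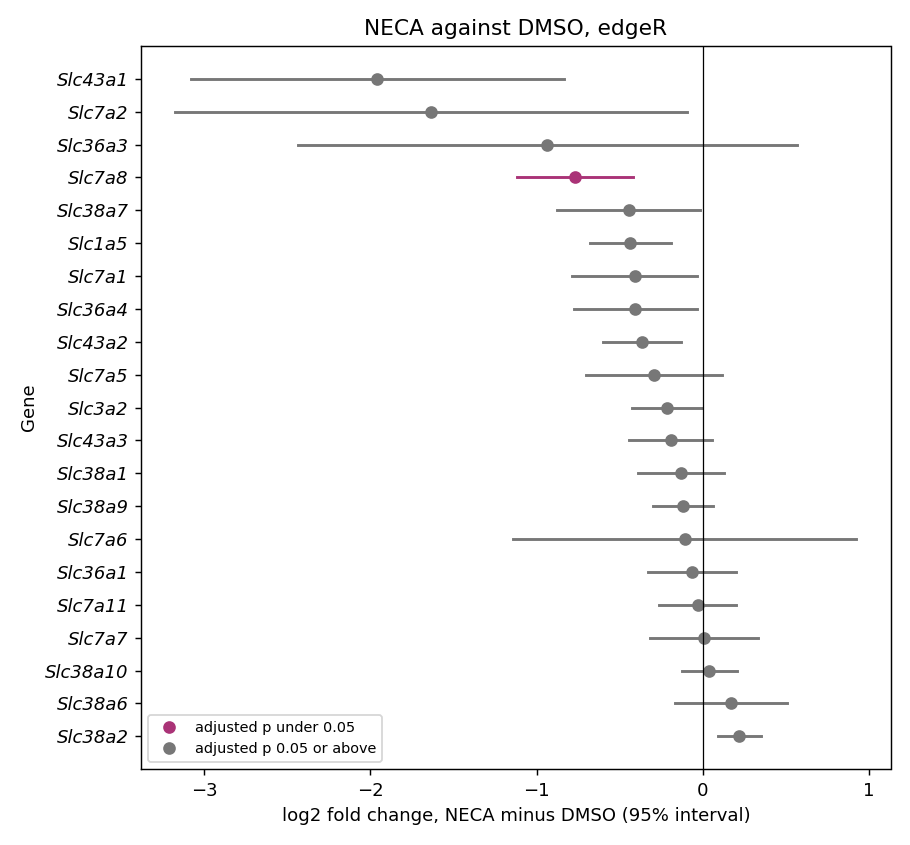
Log2 fold change of NECA over DMSO (points) with its 95% interval (lines) from edgeR for the 21 tested transporter genes, lowest at the top. Slc7a8, in purple, is the 1 gene called; the intervals of 11 genes include 0.

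Slc7a8 encodes LAT2, a light chain that exchanges neutral amino acids of all sizes. Its level was 18.7 CPM in DMSO replicate 1 and 16.4 CPM in DMSO replicate 2, against 10.9 CPM in NECA replicate 1 and 9.63 CPM in NECA replicate 2. The groups did not overlap, and both NECA libraries lay well below both DMSO libraries. The mean fell from 17.5 ± 1.66 to 10.3 ± 0.920 CPM (SD, n = 2 each), a 1.70-fold fall with a log2 fold change of -0.77 (SE 0.16, 95% interval -1.12 to -0.42, adjusted p = 0.0412). It did not pass when DMSO replicate 1 was left out (-0.66, adjusted p = 0.196) or DMSO replicate 2 (-0.86, adjusted p = 0.0851), and with limma on log2(FPKM + 1) (-0.55, adjusted p = 0.222) and on log2(FPKM + 0.1) (-0.73, adjusted p = 0.245). Over the 12 alternatives its adjusted p ran from 0.000676 to 0.245. Slc7a8 lies on chromosome 14, 54722209 to 54781946, on the minus strand (ENSMUSG00000022180, GENCODE M21 on GRCm38).

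Markers of other cells moved in the same libraries. The summed level of the 20 macrophage markers, none of them at 0, was 1044 to 1190 CPM with DMSO and 505 to 634 CPM with NECA. Relative to the DMSO mean, Slc7a8 stood at 0.623 and 0.549 in NECA replicates 1 and 2, and the summed macrophage markers stood at 0.567 and 0.452. That sum is weighted by a few abundant genes: the median log2 fold change of the 20 markers was -1.49, a larger difference than that of Slc7a8. The most abundant of these markers, the protease Ctsb, fell by 0.55 on the log2 scale (adjusted p = 0.0100). Hmox1, which degrades haem, fell from 116 and 96.6 CPM to 44.3 and 30.7 CPM (adjusted p = 0.000344), while the receptor Csf1r stood at -0.35 on the log2 scale (adjusted p = 0.0964). The 13 neutrophil markers summed to 114904 and 120370 CPM with DMSO, against 127607 and 128886 CPM with NECA, a sum set by its most abundant members. Of these 13 edgeR called 2 higher, Mmp8 and Mmp9, and 0 lower, and DESeq2 called 4 higher and 0 lower. At an unadjusted p under 0.05 in edgeR, 9 were higher and 1 lower, and the lower one, Mpo, stood at -1.19 (adjusted p = 0.121). Of all genes tested, 6.81% were higher and 8.88% lower at that level, and edgeR called 0.352% higher and 0.978% lower. The 12 T and NK cell markers summed to 30.6 and 32.9 CPM with DMSO, against 18.7 and 19.3 CPM with NECA, and none of the 6 tested was called (5 lower and 0 higher at an unadjusted p under 0.05; 0 called with DESeq2). The 8 dendritic cell markers summed to 31.6 and 28.7 CPM with DMSO, against 18.1 and 8.08 CPM with NECA. Of 4 tested, 3 had log2 fold changes below 0 and 1 above. Among them 2 were called lower (Irf8 and Btla), and 1 with DESeq2. The 10 markers of basophils, mast cells and eosinophils summed to 67.0 and 66.4 CPM with DMSO, against 48.8 and 39.0 CPM with NECA. Of 9 tested, 8 had log2 fold changes below 0 and 1 above, and 1 was called lower (Ccr3). No marker of these lists was at 0 in all 4 libraries. The part of these cells in the Slc7a8 result was not tested.

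**Figure D3:**
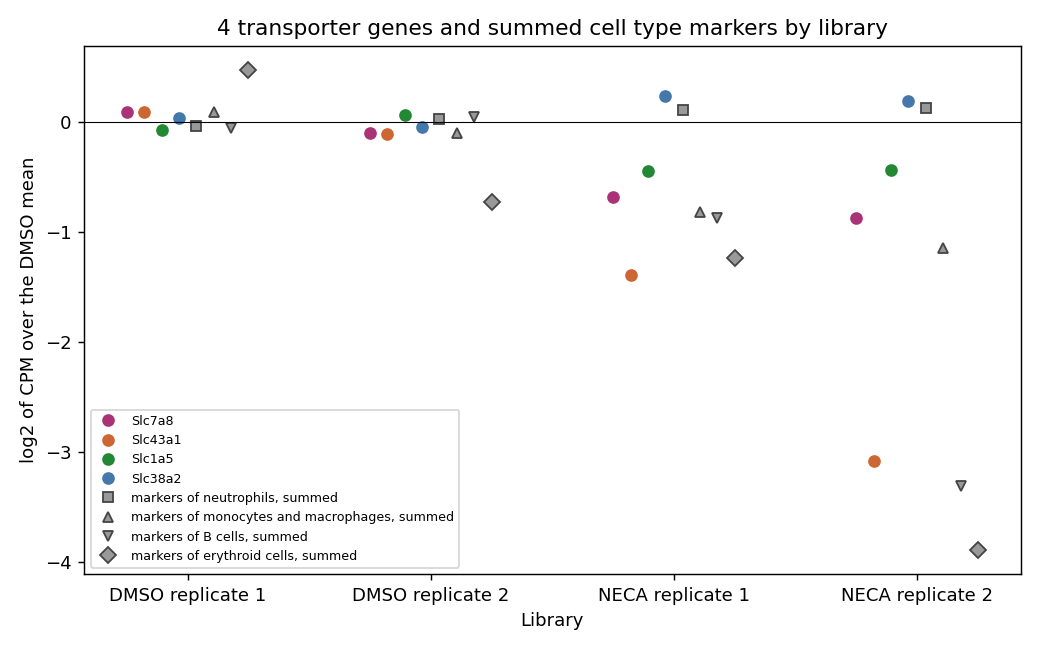
Log2 of CPM relative to the DMSO mean in each of the 4 libraries for 4 transporter genes (coloured circles) and for the summed markers of 4 cell types (grey symbols). Slc7a8 stands at 0.623 and 0.549 of the DMSO mean in the NECA libraries. Slc7a8, Slc43a1 and the macrophage, B cell and erythroid markers are all lowest in NECA replicate 2. Slc1a5, Slc38a2 and the neutrophil markers are not.

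Stretches of promoter sequence show where letters of 3 response elements occur among these genes. Shown are the stretch before Slc7a8, the gene that was called, and those before Slc7a11 and Slc38a6, which hold matches to the first 2 elements; Slc7a7 also holds such matches and is given by position. The elements are the cAMP response element, TGACGTCA, bound by CREB, the C/EBP-ATF response element, TGATGNAA, bound by ATF4, and the antioxidant response element, TGACNNNGC, bound by NRF2. The 250 bases before each RefSeq start (GRCm38.p6) were searched on both strands, and the motifs do not overlap in the stretches shown. Capitals mark a match, and bases inside an annotated GENCODE exon of the gene are left out. The stretches run 5′ to 3′ on the gene's strand: chr14:54781947-54782136 (minus) for Slc7a8, chr3:50443615-50443863 (minus) for Slc7a11 and chr12:73286598-73286778 (plus) for Slc38a6.
Slc7a8: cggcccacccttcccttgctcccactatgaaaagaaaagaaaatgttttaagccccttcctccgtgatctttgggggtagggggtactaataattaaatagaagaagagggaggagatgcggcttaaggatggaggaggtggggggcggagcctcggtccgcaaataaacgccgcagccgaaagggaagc
Slc7a11: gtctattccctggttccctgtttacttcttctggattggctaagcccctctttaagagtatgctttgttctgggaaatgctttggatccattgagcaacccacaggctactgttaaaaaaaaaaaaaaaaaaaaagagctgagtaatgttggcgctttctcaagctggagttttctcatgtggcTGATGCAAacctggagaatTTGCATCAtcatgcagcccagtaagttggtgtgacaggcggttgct
Slc38a6: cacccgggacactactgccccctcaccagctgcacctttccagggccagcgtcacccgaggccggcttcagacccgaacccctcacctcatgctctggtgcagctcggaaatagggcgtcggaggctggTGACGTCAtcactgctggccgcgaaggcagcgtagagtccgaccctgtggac
Slc7a11 had 2 matches to the C/EBP-ATF element, 66 and 47 bases before the start and on opposite strands. Slc38a6 had 1 cAMP response element, 121 bases before the start, and the Slc7a8 stretch had none of the 3. The tested genes Slc1a5, Slc7a2, Slc7a5, Slc38a1 and Slc43a3 had no RefSeq window, so their promoters were not searched. RefSeq windows were found for 25 of the 36 genes (36 windows). The C/EBP-ATF element was in 3 of these windows (Slc7a11 and, at 2 of its starts, Slc7a7, 243 and 141 bases before them) and in 3.45% of 32851 windows of all genes, and the cAMP response element was in 1 of them and in 1.55% of all. The antioxidant response element was in 4 of them (Slc38a2, Slc43a1, Slc7a1 and Slc7a6) and in 10.2% of all. A match of letters is a description and shows no binding.

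Slc7a11, which as xCT brings in cystine in exchange for glutamate, kept close values in all libraries. It had 28.2 and 28.2 CPM with DMSO, against 26.5 and 28.8 CPM with NECA. The groups overlapped, and the log2 fold change was -0.03 (95% interval -0.26 to 0.20, adjusted p = 0.929). Slc38a6 had 12.9 and 13.6 CPM with DMSO, against 15.8 and 14.0 CPM with NECA, without overlap, and a log2 fold change of 0.17 (95% interval -0.17 to 0.51, adjusted p = 0.669). Its transcripts share 100-base stretches with those of other genes (281 of them with D10Wsu102e), so its counts are uncertain.

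Slc3a2, the heavy chain shared by LAT, y+LAT and xCT exchangers, had 52.8 and 59.3 CPM with DMSO, against 52.1 and 44.3 CPM with NECA. NECA replicate 1 lay just under the lower DMSO library, and NECA replicate 2 lay further below. The log2 fold change was -0.21 (95% interval -0.43 to -0.0023), with an unadjusted p of 0.0479 and an adjusted p of 0.314. The value moved to -0.10 when NECA replicate 2 was left out, and to -0.34 when NECA replicate 1 was. Its transcripts share up to 28 stretches of 100 bases with another gene (Aaed1), so its counts carry that uncertainty. On the length-scaled measure the heavy chain stood at 12.6 to 16.7 FPKM, and the 5 detected light chains together at 10.7 to 13.8 FPKM. The ratio of heavy to light chain FPKM was 1.08 and 1.31 with DMSO and 1.23 and 1.17 with NECA, so the groups overlapped.

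Slc7a7 (y+LAT1, which exports cationic in exchange for neutral amino acids) was the most abundant light chain by FPKM. It had 17.2 and 15.4 CPM with DMSO, against 17.7 and 15.0 CPM with NECA, with a log2 fold change of 0.0059 (95% interval -0.32 to 0.33, adjusted p = 0.992). Its exons share 232 bases with the antisense gene Oxa1l, and use of strand in counting is not given in the sources used here, so its counts are uncertain. Slc7a5 (LAT1, the carrier of large neutral amino acids such as leucine) had 9.61 and 9.51 CPM with DMSO, against 8.24 and 7.37 CPM with NECA. Both NECA libraries were lower, but the log2 fold change of -0.29 (95% interval -0.70 to 0.12) did not pass (adjusted p = 0.508). Slc7a6 (y+LAT2) was near 1 CPM, with 15 to 30 counts per library, and the groups overlapped. The light chain genes Slc7a9, Slc7a10, Slc7a12, Slc7a13 and Slc7a15 had 0 counts in all 4 libraries.

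**Figure D4:**
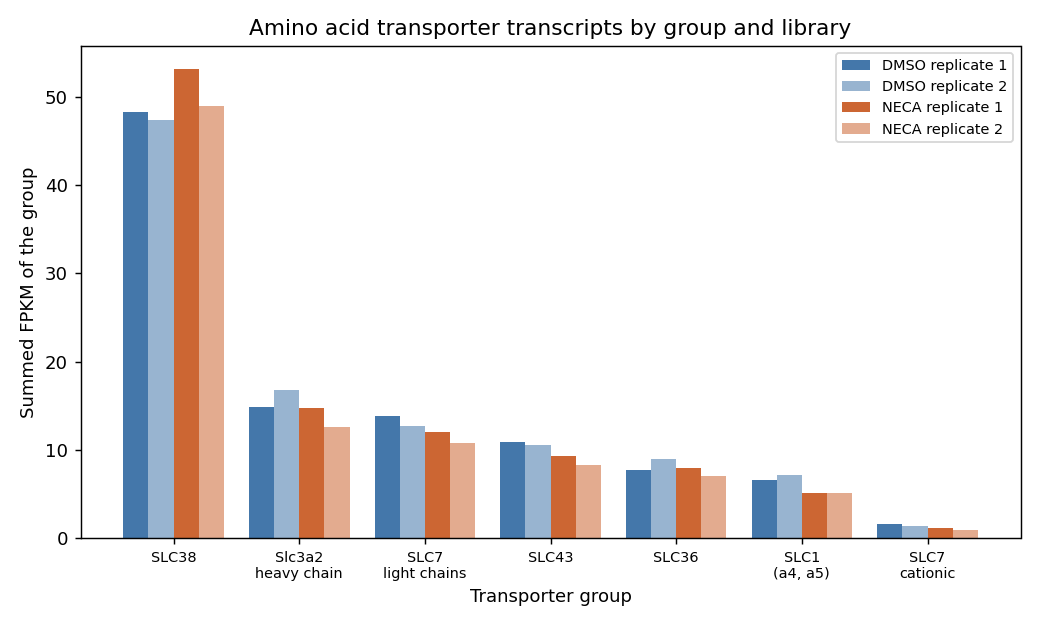
Summed FPKM (bars from 0) of each transporter group in the 4 libraries; blue is DMSO, orange is NECA, and the paler bar is replicate 2. SLC38 genes hold 47.3 to 53.1 FPKM, more than any other group. Every group but SLC36 and SLC38 is lower in both NECA libraries than in both DMSO libraries. Of single genes, 24.3% of all tested lay so by CPM. The heavy chain group is Slc3a2 alone, at 14.91 FPKM in DMSO replicate 1 and 14.79 FPKM in NECA replicate 1. The SLC1 group is nearly all Slc1a5.

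Among the SLC38 carriers, Slc38a2 (SNAT2, a sodium-coupled carrier of small neutral amino acids known to be induced by amino acid shortage) was the most abundant. It had 199 and 189 CPM with DMSO, against 229 and 222 CPM with NECA. Both NECA libraries were higher, and it was the 1 transporter with an unadjusted p under 0.05 in that direction. The log2 fold change was 0.22 (SE 0.06, 95% interval 0.09 to 0.35), which did not pass over all genes (adjusted p = 0.0923; 0.0508 with DESeq2). It passed in 1 of 12 alternatives, the fit without a filter on low counts (adjusted p = 0.0231).

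Slc38a10 had 110 and 107 CPM with DMSO, against 120 and 104 CPM with NECA, which overlapped (log2 fold change 0.04, adjusted p = 0.877; -0.03 with library size alone). Its exons share 367 bases with an antisense gene, so its counts are uncertain. Slc38a9, a lysosomal carrier that reports arginine to mTORC1, the kinase complex that couples nutrients to growth, had 45.9 and 48.8 CPM with DMSO, against 43.7 and 43.6 CPM with NECA. Its log2 fold change of -0.12 (95% interval -0.30 to 0.06) did not pass (adjusted p = 0.554), and its counts too are uncertain beside an antisense gene that shares 182 exonic bases. Slc38a1 (SNAT1, a glutamine carrier) overlapped between groups, at 26.2 and 23.6 against 23.7 and 21.6 CPM, and 319 stretches of 100 bases in its transcripts recur in 4632432E15Rik, so its counts are uncertain.

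Slc38a7 (SNAT7, which exports glutamine from lysosomes) had 11.0 and 13.1 CPM with DMSO, against 10.1 and 7.56 CPM with NECA. NECA replicate 1 was close to DMSO replicate 1, and NECA replicate 2 was lower (log2 fold change -0.45, 95% interval -0.87 to -0.02, adjusted p = 0.294; -0.26 without NECA replicate 2 and -0.67 without NECA replicate 1). Slc38a5 had 9 and 7 counts with DMSO and 0 and 1 with NECA and was below the minimum for a test. Slc38a4 and Slc38a8 had at most 4 counts in a library, and Slc38a3 and Slc38a11 had 0 throughout.

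Slc1a5 (ASCT2, a main route of glutamine entry) had 27.4 and 30.2 CPM with DMSO, against 21.3 and 21.4 CPM with NECA. The groups did not overlap, and the NECA libraries lay close together. Its log2 fold change was -0.43 (SE 0.11, 95% interval -0.68 to -0.19), with an adjusted p of 0.0868 that did not pass. It passed in 2 of 12 alternatives, with library size alone (-0.51, adjusted p = 0.0449) and without a filter (adjusted p = 0.0252). Slc1a4 (ASCT1), of the same family, had 1 count in 1 library.

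Of the cationic carriers, Slc7a1 (CAT1, a general importer of arginine and lysine) had 14.8 and 14.3 CPM with DMSO, against 12.3 and 9.56 CPM with NECA. Both NECA libraries were lower, replicate 2 more so, with a log2 fold change of -0.41 (95% interval -0.78 to -0.04, adjusted p = 0.269; -0.24 without NECA replicate 2). Slc7a2 (CAT2, the arginine carrier of activated macrophages) had 31 and 12 counts with DMSO and 5 and 7 with NECA. The DMSO libraries differed from each other more than DMSO replicate 2 differed from NECA, and the log2 fold change of -1.63 had an interval of -3.17 to -0.10 (adjusted p = 0.284). Without DMSO replicate 1 it was -0.81. Its exons share 635 bases with an antisense gene, so its counts are uncertain. Slc7a3 had 3 to 12 counts per library, Slc7a4 had 1 count in all, and Slc7a14 had 0.

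Of the proton-coupled carriers, Slc36a1 (PAT1, found on lysosomes) had 30.7 and 38.8 CPM with DMSO, against 35.1 and 31.1 CPM with NECA. The groups overlapped (log2 fold change -0.07, adjusted p = 0.866), and the sign turned without DMSO replicate 2 (0.12) or without NECA replicate 2 (0.02). Slc36a4 had 12.5 and 12.0 CPM with DMSO, against 9.61 and 8.85 CPM with NECA. These did not overlap, but the log2 fold change of -0.41 (95% interval -0.78 to -0.04) did not pass (adjusted p = 0.268). Slc36a3 had 16, 12, 9 and 4 counts in DMSO replicates 1 and 2 and NECA replicates 1 and 2 (adjusted p = 0.575), and Slc36a2 had 0.

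All 3 SLC43 genes lay lower in both NECA libraries, as 24.3% of all genes tested did, and none was called by edgeR or DESeq2. Of the 3, 2 were lower at an unadjusted p under 0.05 in edgeR, beside 8.88% of all genes tested. Slc43a1, 1 of these 2, reached the count minimum in both DMSO libraries but in only 1 NECA library. Slc43a2 (LAT4, a facilitative carrier of branched-chain amino acids, methionine and phenylalanine) had 40.3 and 34.0 CPM with DMSO, against 28.9 and 28.8 CPM with NECA. Its log2 fold change was -0.36 (95% interval -0.60 to -0.13, adjusted p = 0.118; -0.23 without DMSO replicate 1), and its counts are uncertain because 922 exonic bases are shared with an antisense gene. Slc43a3, which the family name places here but which is known to carry purine nucleobases, had 28.8 and 30.2 CPM with DMSO, against 27.8 and 23.7 CPM with NECA (log2 fold change -0.19, adjusted p = 0.454).

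Slc43a1 (LAT3, a facilitative carrier of branched-chain amino acids) had the lowest fold change of the 21 genes. It had 2.93 and 2.55 CPM with DMSO, against 1.04 and 0.323 CPM with NECA, from 56, 48, 19 and 5 counts. The groups did not overlap, and the NECA libraries differed widely from each other. The log2 fold change was -1.96 (SE 0.51, 95% interval -3.08 to -0.84, adjusted p = 0.0880), which did not pass. Without NECA replicate 1 it was -3.06 (adjusted p = 0.00127) and without NECA replicate 2 it was -1.39. The summed B cell markers (10 genes, none at 0) were 333 and 357 CPM with DMSO, against 189 and 34.9 CPM with NECA. The summed erythroid markers (11 genes, none at 0) were 1234 and 538 against 378 and 59.6 CPM. All 10 and all 11 were lower at an unadjusted p under 0.05 in edgeR, beside 8.88% of all genes tested. At adjusted p under 0.05 edgeR called 1 B cell marker and 0 erythroid markers lower, and DESeq2 called 0 in either list. Both lists were lowest in NECA replicate 2, as Slc43a1 was. The same library was lowest for 15 of the 21 transporters and for 28.9% of all genes tested. It was also lowest for the summed macrophage, dendritic cell, and basophil, mast cell and eosinophil markers. The neutrophil sum and the T and NK cell sum were lowest in other libraries. The part of these cells in the values of Slc43a1 was not tested.

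Genes around amino acid supply were followed as 7 lists, and edgeR called 0 members in either direction in any of them. At an unadjusted p under 0.05, 6.81% of all genes tested were higher and 8.88% lower, and the counts of each list are set against these shares. Of 25 tested genes of ATF4 and the integrated stress response, 2 were higher and 9 lower at an unadjusted p under 0.05, and the median log2 fold change was -0.07. Atf4 itself stood at -0.14 (189 and 193 against 172 and 176 CPM, adjusted p = 0.275), and Ppp1r15b, the constitutive phosphatase subunit that acts on eIF2α, at 0.13 (adjusted p = 0.243). The stress-induced subunit Ppp1r15a stood at -1.09 (131 and 142 against 84 and 32 counts, adjusted p = 0.118). Of 20 tested aminoacyl-tRNA synthetases, which load amino acids onto tRNA, 17 had values below 0 (51.4% of all genes tested did), with a median of -0.13, and 0 were higher and 5 lower at an unadjusted p under 0.05. The most abundant, Dars and Qars, stood at 0.03 and -0.04. Of 36 genes of amino acid sensing by mTORC1 the median was -0.00048, with 1 higher and 2 lower at an unadjusted p under 0.05. Mlst8 and Lamtor4, subunits of the kinase and of its lysosomal anchor, stood at 0.09 and 0.06.

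Of 22 tested genes of glutamine, cystine and glutathione metabolism, 5 were higher and 2 lower at an unadjusted p under 0.05 (median -0.02), beside 6.81% and 8.88% of all genes tested. The glutathione reductase Gsr had 918 and 966 CPM with DMSO, against 1047 and 1078 CPM with NECA (log2 fold change 0.17, adjusted p = 0.0923), and was the 1 gene of these 7 lists that DESeq2 called (adjusted p = 0.0253). The peroxidase Gpx1 stood at 0.17 (adjusted p = 0.166). Glul, which makes glutamine, had the smallest p of the list and went the other way, with 98.9 and 96.6 CPM with DMSO, against 80.1 and 79.0 CPM with NECA (log2 fold change -0.30, adjusted p = 0.0560). Of 14 genes of arginine, tryptophan and polyamine metabolism, 1 was higher and 3 lower at an unadjusted p under 0.05 (median -0.0014). The most abundant were Oaz1, an inhibitor of polyamine synthesis, at 0.01 and Sat1, which acetylates polyamines, at 0.12. Odc1 had the smallest p of this list, with 17.7 and 14.8 CPM with DMSO, against 9.94 and 10.1 CPM with NECA. Its log2 fold change was -0.70 (edgeR adjusted p = 0.0652). Of 15 genes of branched-chain amino acid breakdown, 0 were higher and 1 lower at an unadjusted p under 0.05 (median -0.06), and Dld, a subunit of the dehydrogenase complexes of this pathway, stood at -0.04. Of 17 other amino acid and peptide carriers, 0 were higher and 1 lower at an unadjusted p under 0.05 (median -0.14). Their most abundant members were the taurine carrier Slc6a6 (369 and 375 against 409 and 389 CPM, adjusted p = 0.387) and the lysosomal peptide and histidine carrier Slc15a3 (163 and 165 against 174 and 178 CPM, adjusted p = 0.442).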

How the data were processed

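For each library the authors deposited counts (whole reads per Ensembl gene) and FPKM side by side, per the file headers. The submitters' processing notes list HISAT, StringTie and edgeR without versions, with mm10 and GRCm38 as builds. How reads were counted, whether strand was used and what became of reads matching several genes is not given in the sources used here. The FPKM that the authors deposited are the same counts over 1 length for each gene and 1 scaling factor for each library (largest relative departure 4.6e-09 over 9004 genes), and were used to compare levels between genes.

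Counts were analysed in R 4.3.3 with edgeR 4.0.16: filterByExpr (minimum count 10), TMM scaling, and the quasi-likelihood test of NECA against DMSO over all 13083 genes kept, with 2 residual degrees of freedom, no replicate block and Benjamini-Hochberg adjustment (threshold 0.05). SE was derived from the log2 fold change and its F statistic. Levels between groups are CPM on TMM-scaled library sizes. Alternatives used DESeq2 1.42.0, limma 3.58.1, other scalings and filters, and fits without each library. In data simulated from these libraries for this comparison (13083 genes, 200 of them changed, all of at least 5 CPM), calls covered 68.8% of the 1.5-fold, 87.5% of the 2-fold and 100% of the 3-fold changes, and 14 of 179 calls were genes without a change. The simulated counts varied gene by gene, without a shift of many genes within a library, so recovery in the real libraries may differ. The replicates of a group were not copies (chi-square per degree of freedom 6.78 for DMSO and 5.38 for NECA). Replicate numbers were not taken to pair the libraries (correlation of same-numbered deviations 0.02 over genes).

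The transporters were chosen by symbol, and the members and lists were chosen with earlier results of these data known. Every transporter is accounted for, and those tested are given with values. From each pathway list the members past the threshold, or else the 2 most abundant tested, are named, and from marker lists up to 3 of the most abundant. The value of 1 gene that this rule names is not reported here. Of the listed symbols Slc66a1, Samtor, Lars1 and Mars1 matched no gene. Gsr's DESeq2 value was looked up after that count was seen, and Elane, Mpo, Mmp8, Mmp9, Irf8, Btla, Ccr3, Glul, Odc1 and Ppp1r15a are named after their values were seen. Positions, exon overlaps and shared transcript sequence come from GENCODE M21 (GRCm38).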

Additional observations from a re-analysis of the deposited data

How the results depend on the processing

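No transporter was called higher in any setting tried except the fit without a filter on low counts, which called 1. The number called lower, 1 with the settings used, was 4 without that filter, 2 with library size alone, 2 with the replicate block, 0 with limma on log2(FPKM + 1) and 0 on log2(FPKM + 0.1), and 0 to 2 when single libraries were left out. Over all genes, 46 higher and 128 lower became 285 and 590 without the filter, 123 and 298 with the replicate block, 21 and 217 with library size alone, and 1 and 0 with limma on FPKM at either pseudocount. DESeq2 called 143 higher (it gave no adjusted p for Slc36a3 and Slc7a2), and fits without 1 library called 8 to 227 higher and 45 to 594 lower. The cause was not tested. The replicate numbers gave 2 pairs, which are too few to show pairing, and the block is given as an alternative only. Under it Slc43a1 passed besides Slc7a8 (-2.06, adjusted p = 0.0363).

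Of 248 values of single transporters under alternatives, 227 kept direction and side of the threshold, 4 were no longer past it, 7 passed newly and 10 changed sign, all of genes that were not called. With library size alone, Slc38a10 stood at -0.033 and Slc7a7 at -0.067, and with a mean count of at least 20 Slc7a7 stood at -0.0092. When single libraries were left out, the ranges were -0.22 to 0.12 for Slc36a1, -0.069 to 0.14 for Slc38a10, -0.092 to 0.028 for Slc7a11, -0.55 to 0.21 for Slc7a6 and -0.12 to 0.12 for Slc7a7. Where a group is left with 1 library, that library is assumed to vary like the other group. Depth limits the genes below 1 CPM: Slc36a3 and Slc7a2 had 4 to 31 counts per library, and their intervals span more than 2-fold in either direction of the estimate.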

Other observations

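Several of these transporters are neighbours in the genome and differ in level. On chromosome 15, Slc38a1 and Slc38a2 are 44.5 kb apart, and Slc38a4 lies 295.1 kb beyond Slc38a2. Their mean levels were 1.38, 23.7 and 0.012 FPKM, and Slc38a4 had counts in 1 library alone (4 in DMSO replicate 2). On chromosome 11, Slc36a3, Slc36a2 and Slc36a1 follow each other with gaps of 6.8 and 19.3 kb, and their mean levels were 0.236, 0 and 6.03 FPKM. Slc36a1 and Slc36a2 share 38 of the 100-base words of their transcripts, and Slc36a2 was at 0 in all 4 libraries. On chromosome 2, Slc43a1 and Slc43a3 lie 73.0 kb apart on the same strand. Their log2 fold changes were -1.96 (95% interval -3.08 to -0.84) and -0.19 (95% interval -0.44 to 0.05); the difference between them was not tested.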
